A study of Drosophila melanogaster with 2 samples.

Results

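The genes described here are Ugalt, CG1888, lncRNA:CR31840, Alg3, CenG1A, px and PNPase, 7 genes of the 18358 in the annotation used. They were chosen by measured values: each is the gene nearest to a promoter summit among the 20 regions with the highest signal values in the list of regions that passed the authors' threshold, and none is a cytoplasmic ribosomal protein gene. A promoter summit is the highest point of a region lying within 500 bp of an annotated transcription start site (TSS). Of those 20 regions 13 had such a summit, and the other 6 of them, at CG14100 beside ash1, RpL7, RpS27, fkh, Hsp83 and mRpL41, serve only as points of comparison. Besides RpL7 and RpS27 these 6 hold 4 that are not cytoplasmic ribosomal protein genes either, so the 7 are not all such promoters among the 20. Because signal chose the genes, their ranks and signals are given as descriptions and no test is made on them. The last promoter region inside the 20 lay at mRpL41 (rank 19, signal 465.2), and the first outside lay at yps (rank 22, 455.1) and Art3 (rank 23, 454.7). By distance, the region nearest to ph-p (rank 8, signal 603.9) had its summit 501 bp from a TSS. It lay just past the 500 bp limit and was not counted as a promoter region. PNPase, at rank 18 with a signal of 471.8, was the weakest of the 7.

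The material was chromatin of whole Drosophila melanogaster embryos, aged 0 to 24 h and of both sexes mixed, from a line with a stable transgene that gives Ash1 a GFP tag at its C-terminal end. There was 1 group of 2 samples, biological replicates 2 and 4, sheared by sonication to 200 to 800 bp, and untagged or differently treated embryos were not analysed here. A description field calls these samples input controls, whereas the antibody field, the assay name and the deposited regions describe an Ash1 ChIP, and they were read as ChIP. Whether the tagged gene is additional to the endogenous copy or replaces it is not stated in the labels, and embryos of all stages and tissues contribute to each value.

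Ash1 belongs to the trithorax group, whose members keep developmental genes active against Polycomb repression, and it methylates lysine 36 of histone H3. ChIP-seq of a tagged chromatin protein recovers the DNA near which the protein sat, and the summit of a region marks where recovered fragments piled up most. Many fly genes have several TSSs, each with its own promoter, so a region at a gene can lie at the outermost start, at an internal one, or between 2 genes transcribed away from each other. The 4 deposited lists hold 30000 candidate regions for each replicate, 30000 for both replicates pooled, and the pooled regions past the threshold, here called peaks. They hold no read counts, so depth is unknown, and the signal, on a scale the labels do not state, was used to rank regions inside a list.

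Sequences around the summits are shown for the 4 genes on X, 2L and 3R, because they place the summit relative to the bases of each promoter. They come from the RefSeq copy of the Release 6 assembly (dm6) and read 5' to 3' on the strand of the gene. Capitals mark the bases between the lowest and the highest of the 3 summits, those of the pooled list and of both replicates. The windows reach up to 100 bp to either side of the summit, and those of Ugalt and PNPase were shortened to hold at most 30 bases of untranslated exon. They lie at chrX:2703823-2703995 (minus strand, 173 bases), chr2L:14023982-14024182 (minus strand, 201 bases), chr2L:13835358-13835558 (plus strand, 201 bases) and chr3R:31404605-31404682 (minus strand, 78 bases).
Ugalt: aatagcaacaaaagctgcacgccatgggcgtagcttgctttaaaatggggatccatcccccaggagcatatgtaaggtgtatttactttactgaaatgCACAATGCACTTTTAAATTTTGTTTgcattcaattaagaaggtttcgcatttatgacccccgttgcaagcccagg
lncRNA:CR31840: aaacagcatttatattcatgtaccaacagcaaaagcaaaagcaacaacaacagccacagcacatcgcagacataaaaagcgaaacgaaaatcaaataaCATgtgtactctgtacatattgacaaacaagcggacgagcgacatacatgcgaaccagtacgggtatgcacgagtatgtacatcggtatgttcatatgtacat
CenG1A: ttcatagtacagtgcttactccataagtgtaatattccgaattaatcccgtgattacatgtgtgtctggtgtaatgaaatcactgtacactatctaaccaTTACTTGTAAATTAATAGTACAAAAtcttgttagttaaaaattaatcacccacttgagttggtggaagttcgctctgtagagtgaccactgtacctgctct
PNPase: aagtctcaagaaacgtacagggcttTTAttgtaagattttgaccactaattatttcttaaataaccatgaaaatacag
In these windows the 3 summits of lncRNA:CR31840 fell within 3 bases, as did those of PNPase, and those of Ugalt and of CenG1A within 25 bases.

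The strongest region of each of the 7 genes was found in both replicates, at ranks that differed for 6 of them. Each was among the strongest candidates of replicate 2 and of replicate 4, counted to the number of peaks, at ranks no weaker than 41. Over all peaks 46.3% were so placed in both replicates, and over the 914 promoter peaks 47.4%, and since signal chose the genes nothing is read from the contrast. Median ranks were 10 in replicate 2 and 7 in replicate 4 for the 7 genes, against 25.5 and 8.5 for the other 6 promoter summits. Ranks in replicate 4 were the stronger for Ugalt, lncRNA:CR31840 and Alg3, those in replicate 2 the stronger for CenG1A, px and PNPase, and CG1888 ranked 7 in each. Alg3 differed most, by 35 places. Of the other 6, RpL7 ranked 50 in replicate 2 and 3 in replicate 4, RpS27 43 and 8, and Hsp83 30 and 9. Ranked on replicate 4 alone 4 of the 7 genes stayed among the 20 strongest regions, and on replicate 2 alone 6 did.

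**Figure D1:**
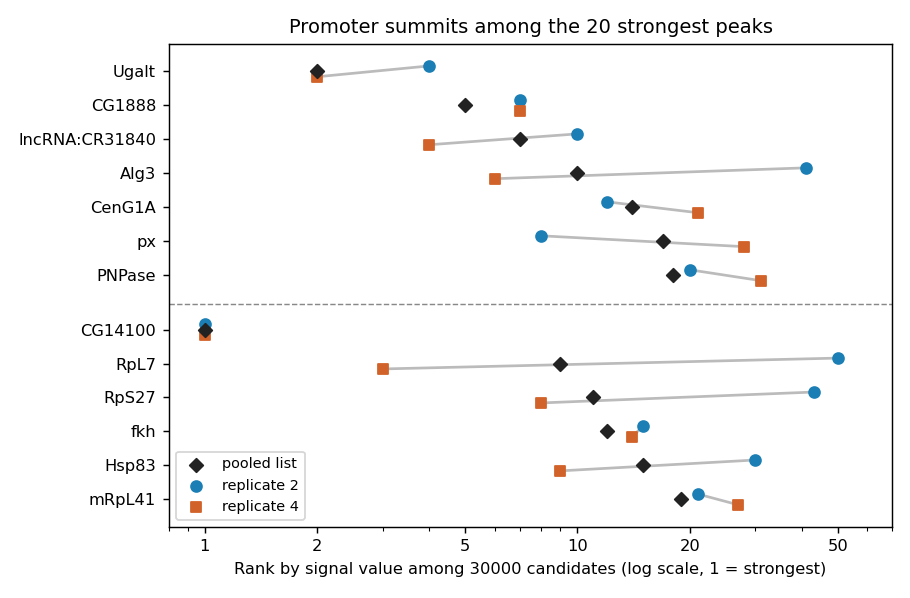
Rank of the promoter regions among the 20 strongest peaks, in the pooled list, in replicate 2 and in replicate 4, on a log axis where 1 is the strongest; the genes described here stand above the dashed line and the other 6 below it. Alg3 has the widest spread of the 7 genes, with rank 41 in replicate 2 and rank 6 in replicate 4.

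Ugalt (FBgn0024994, X, 2701124 to 2703852, minus strand) encodes the transporter that carries UDP-galactose into the Golgi. Its region, 2703729 to 2704036, was the strongest of the 7, with rank 2 and signal 857.4 in the pooled list, rank 4 and signal 398.8 in replicate 2, and rank 2 and signal 455.4 in replicate 4. The pooled summit, at 2703895, lay 43 bp upstream of the outer of its 2 annotated TSSs, in intergenic sequence, and the replicate summits 45 bp and 21 bp upstream. No other pooled candidate lay within 2 kb of a Ugalt TSS, and at 308 bp its region was the widest of the 7. Replicate 4 had a further candidate 1806 bp downstream, in a coding exon, at rank 27107. The neighbour on the other side is eIF2Bbeta, a subunit of the exchange factor for the initiation factor eIF2, transcribed away from Ugalt with its TSS 676 bp from the summit.

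CG1888 (FBgn0033421, 2R, 9541947 to 9548135, minus strand), a protein-coding gene known here by its annotation symbol alone, had its strongest region at 9547034 to 9547309. Its rank was 5 with signal 701.3 in the pooled list, 7 with 291.7 in replicate 2 and 7 with 393.2 in replicate 4. The summit lay 206 bp upstream of the internal TSS at 9546958 and 971 bp inside the outermost one at 9548135, in a 5' UTR exon of the longer transcripts. The gene thus had its strong region at the inner of 2 promoters, each the start of 2 of its 4 transcripts. A region at the outermost TSS, 155 bp upstream, ranked 2525, with matches at rank 2283 in replicate 2 and rank 5904 in replicate 4, and did not pass. Of the other 4 pooled candidates the strongest, at rank 3427, lay in a 3' UTR exon and matched a replicate 4 candidate at rank 585, but none in replicate 2. Replicate 2 in turn had a candidate at rank 980, 1983 bp upstream of the outermost TSS, with no pooled summit within 100 bp. The nearest neighbouring genes were 5599 bp (brp, which encodes the synaptic active zone protein Bruchpilot) and 5680 bp (lncRNA:CR43651) from the summit, so no other TSS lay within 2 kb.

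The long noncoding RNA gene lncRNA:CR31840 (FBgn0051840, 2L, 14023722 to 14024099, minus strand) is 378 bp long and has 1 TSS. The region at 14023955 to 14024243 had rank 7 and signal 689.4 in the pooled list, rank 10 and signal 266.2 in replicate 2, and rank 4 and signal 409.6 in replicate 4. Its summit lay 17 bp inside the transcript, the shortest distance among the 7 genes. A further peak 515 bp upstream passed the threshold, with rank 719 and signal 126.6 in the pooled list. The replicates placed that upstream peak far apart, at rank 5428 with signal 27.76 in replicate 2 and at rank 172 with signal 122.1 in replicate 4. Downstream, a pooled candidate lay 1641 bp from the TSS (rank 2400). Near it stood candidates of replicate 2 at 1694 bp (rank 1500) and of replicate 4 at 1495 bp (rank 990). The summit of replicate 4 was too far from the pooled summit to be matched within 100 bp. For each of these candidates the nearest TSS was that of lncRNA:CR45352, at 425 bp (pooled), 372 bp (replicate 2) and 571 bp (replicate 4). The genes on either side, lncRNA:CR45352 and hll, began or ended 2049 bp and 2919 bp from the summit.

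Alg3 (FBgn0011297, 2R, 23705439 to 23709792, minus strand) encodes a mannosyltransferase that extends the lipid-linked oligosaccharide used for N-glycosylation. Its region, 23709738 to 23709979, had rank 10 and signal 576.3 in the pooled list, rank 41 and signal 180.9 in replicate 2, and rank 6 and signal 393.3 in replicate 4. The summit lay 72 bp upstream of its only TSS, and the replicate summits 80 bp and 72 bp upstream. The position was thus held to 8 bp although the rank was not. The summit also lay in an exon of asRNA:CR45326, an antisense transcript that starts 687 bp away on the plus strand, and the gene overlaps CG5504, which encodes a DnaJ-family protein. The other 2 pooled candidates, at ranks 16581 and 18493, were 1462 bp upstream and 1808 bp downstream.

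CenG1A (FBgn0028509, 2L, 13835564 to 13898712, plus strand) encodes a GTPase-activating protein for Arf, the small GTPases of vesicle traffic, and is the only one of the 7 on the plus strand. The region at 13835353 to 13835573 ranked 14 with signal 522.0 in the pooled list, 12 with 254.8 in replicate 2 and 21 with 267.9 in replicate 4. The summit was 106 bp upstream of the outermost TSS and 386 bp from the divergent TSS of mRpS23, a mitochondrial ribosomal protein gene, so the region lay between 2 genes and within promoter distance of both. CenG1A was the 1 gene of 7 with the TSS of another gene within 500 bp of the summit, against 29.9% of the 914 promoter peaks. A further peak lay 25 bp inside the TSS at 13878957, with rank 655 and signal 130.8 in the pooled list, rank 822 and signal 61.49 in replicate 2, and rank 468 and signal 83.65 in replicate 4. At the innermost of its 3 TSSs the strongest pooled candidate ranked 25000, matched at rank 7406 in replicate 4 and not in replicate 2. CenG1A therefore had peaks at the outer 2 of its 3 starts, with the outermost the stronger in all 3 lists.

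The gene px, or plexus (FBgn0003175, 2R, 22494297 to 22562065, minus strand), is known for limiting the formation of wing veins, and its mutants carry extra veins. Its region, 22514169 to 22514430, ranked 17 with signal 484.6 in the pooled list, 8 with 286.1 in replicate 2 and 28 with 230.0 in replicate 4. The summit lay in an intron, 178 bp upstream of the innermost TSS, at 22514099, from which 1 of the 6 annotated transcripts starts, and 47788 bp from the outermost TSS, from which 4 start. At the TSS at 22546558 the strongest pooled candidate ranked 3710, with matches at rank 10010 in replicate 2 and rank 3246 in replicate 4, and replicate 2 had an unmatched candidate there at rank 8086. At the outermost TSS it ranked 7520, with matches at rank 5048 in replicate 2 and rank 11621 in replicate 4, and its pooled summit was nearer to CG11362, at 69 bp, than to px, at 173 bp. None of the 6 other pooled candidates around the px TSSs passed the threshold.

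PNPase (FBgn0039846, 3R, 31401560 to 31405452, minus strand) encodes polynucleotide phosphorylase, an enzyme that degrades RNA from its 3' end and is found in mitochondria. The region at 31404544 to 31404792 ranked 18 with signal 471.8 in the pooled list, 20 with 236.7 in replicate 2 and 31 with 225.3 in replicate 4. Its summit lay in a 5' UTR exon between 2 internal TSSs, 85 bp inside the one at 31404740 and 87 bp upstream of the one at 31404568. The outermost TSS, at 31405452, was 797 bp away, and the strongest pooled candidate there, at rank 20301, had no match in either replicate. Unmatched candidates near it ranked 7850 in replicate 2, 11 bp inside that TSS, and 20718 in replicate 4. That end of the gene overlaps Gprk2, a G protein-coupled receptor kinase gene on the other strand, whose TSS was 590 bp from the summit of the strongest region. The replicate 4 candidate at rank 20718 was nearer to the Gprk2 TSS, at 7 bp, than to that of PNPase, at 200 bp.

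**Figure D2:**
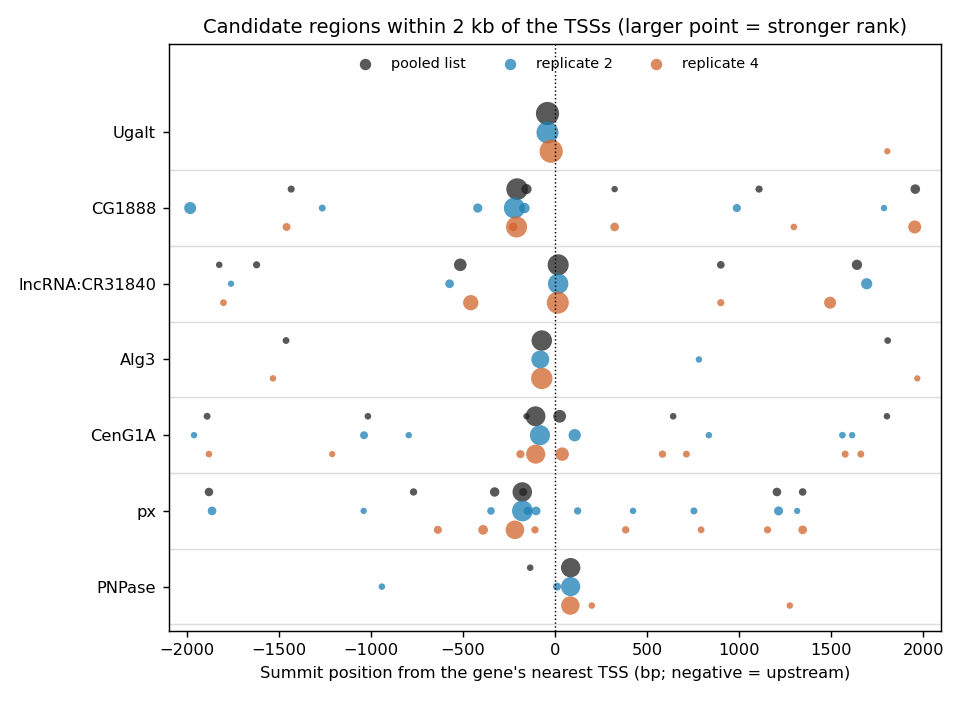
Summits of all candidate regions within 2 kb of the TSSs of each gene, by distance in bp from the nearest TSS of that gene (negative is upstream), in the pooled list, replicate 2 and replicate 4; a larger point is a stronger rank. In each gene a large point of all 3 lists lies within 221 bp of a TSS, and Ugalt has no second pooled region.

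Over all 7 genes the pooled list held 32 candidates within 2 kb of a TSS, 9 of them peaks. These were the strongest region of each gene, the upstream peak at lncRNA:CR31840 and the one at the middle TSS of CenG1A. Of all 30000 pooled candidates 5.22% passed, and of the 17195 within 2 kb of any TSS 7.29%. The strongest region of each gene passed because the rule took it from the peaks. Only the 25 other regions can be set beside these shares, and 2 of them passed. The 25 other regions had a median rank of 13033. Apart from the 2 further peaks, at ranks 655 and 719, all ranked 2400 or weaker. Of the 25, 8 were matched within 100 bp in both replicates, 3 in replicate 2 only, 8 in replicate 4 only and 6 in neither. Each replicate had 36 candidates around these TSSs, of which 18 in replicate 2 and 13 in replicate 4 had no pooled summit within 100 bp. Around the summits themselves the number of further pooled candidates within 2 kb was 0 to 5 with a median of 2, the same median as at all 914 promoter peaks.

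Of these genes 3 carried their strongest region away from the annotated 5' end. CG1888, px and PNPase had the summit more than 500 bp from the outermost TSS, out of the 4 genes whose TSSs span more than 500 bp, and CenG1A did not. Among promoter peaks at genes with TSSs so far apart 52.8% (204 of 386) were placed that way, so an internal position was common among promoter peaks. At px and PNPase the strongest pooled candidate at the outermost start ranked 7520 and 20301, and at CG1888 it ranked 2525. Nothing in the lists tells which TSSs are used in embryos of these stages.

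**Figure D3:**
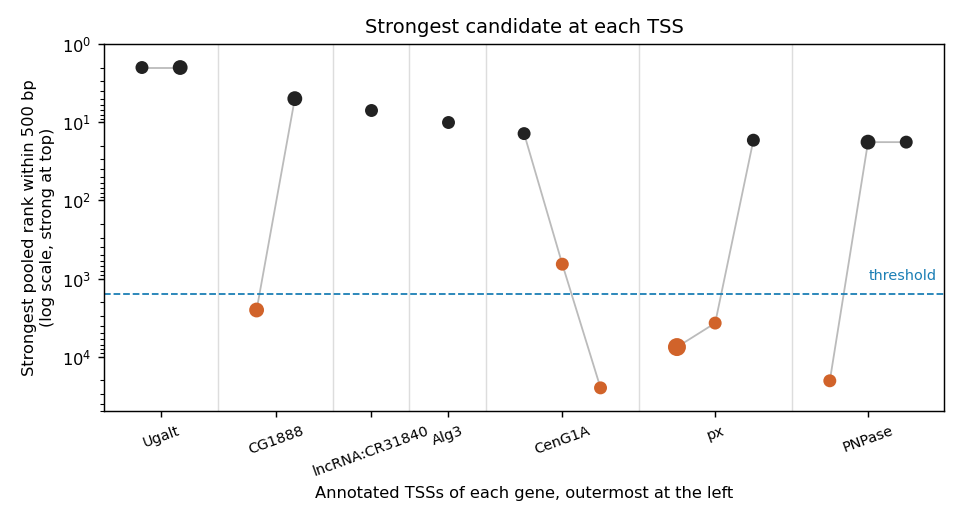
Strongest pooled candidate within 500 bp of each annotated TSS, by rank on a log axis with strong ranks at the top; the TSSs of a gene run from the outermost at the left to the innermost, black marks the strongest, and a larger point means more transcripts from that TSS. The dashed line is the rank of the weakest peak: CG1888, px and PNPase are above it at internal TSSs only, and CenG1A at the outer 2 of its 3.

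The position and shape of the 7 regions are set here beside those of all promoter peaks. The median distance to the nearest TSS was 85 bp (17 to 206 bp), against 68 bp over the 914 promoter peaks, whose interquartile range ran from 33 to 167 bp. The summit was upstream of the nearest TSS in 5 of the 7, and in 64.6% of all promoter peaks. It was downstream at lncRNA:CR31840 and PNPase. The regions were 221 to 308 bp wide, and all 7 were narrower than the most frequent width of 336 bp, as were 19.9% of all peaks, and the other 6 promoter regions were also narrow (225 to 314 bp). The summits of replicate 2 and replicate 4 were 2 to 41 bp apart with a median of 12 bp, against a median of 28 bp for the 832 promoter peaks matched in both. The closest were lncRNA:CR31840 and PNPase at 2 bp and the farthest px at 41 bp. Since signal chose the genes, nothing is read from the difference between the 12 bp and 28 bp medians. Of the 7 genes 6 lie on the minus strand. The strand share over all promoter peaks was not computed, so nothing is read from this count.

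Base composition and short motifs differed among the 7 windows, taken as 100 bp to either side of the pooled summit. GC content was 35.8% at CenG1A, 37.3% at PNPase, 39.3% at px, 39.8% at lncRNA:CR31840, 40.3% at CG1888, 41.3% at Alg3 and 45.3% at Ugalt. Over all promoter peaks the median was 44.3%, with an interquartile range from 38.3% to 49.3%, so 6 of the 7 were below the median and 2 below that range. Of 12 motifs searched on both strands, Alg3 held 3, lncRNA:CR31840, CenG1A and px held 1 each, and Ugalt, CG1888 and PNPase held none. The share of promoter peaks with any or none of the 12 was not computed, so nothing is read from these counts.

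The motifs at Alg3 were those of core promoters and boundary proteins. It alone held TATCGATA, the element bound by DREF at promoters of growth and replication genes, centred 24 bp downstream of the summit. That element was present in 6.67% of promoter peaks, 4.26% of the other promoter candidates and 1.48% of all candidates. CGATA, the core bound by BEAF-32, was found there as well, with 2 of its 3 matches inside that element, and in 35.0% of promoter peaks. CAGCTG, an E-box, was also present (14.9% of promoter peaks). At px, GAGAG, bound by GAGA factor, occurred 4 times between 63 and 94 bp downstream of the summit, 2 of them overlapping, and in 34.9% of promoter peaks. Around the replicate 4 summits, without replicate 2, none of the 7 windows held GAGAG and 2 held CGATA. The window of lncRNA:CR31840 held TATAAA on the opposite strand, at -90 bp from the summit (23.1% of promoter peaks). In the printed sequence it reads as its reverse complement, TTTATA, near the 5' end. CenG1A held CACACA on the opposite strand, at -40 bp (24.0% of promoter peaks). The letters GTCACACT, CANCNCTA and CACGTG were in none of the 7 windows and in that of RpL7, with shares of 4.38%, 15.9% and 4.16% among promoter peaks. None of the 7 held CAGGTAG, bound by Zelda (0.985% of promoter peaks), GCCATTT, bound by the Polycomb recruiter Pho (4.92%), or the pyrimidine run CTCTTTC (5.8%). A match describes letters in a window, not a bound site.

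Genes with roles like those of Ugalt, Alg3, CenG1A, PNPase and px were looked up in 5 lists chosen by function. Of 63 other genes in them 42 had a candidate at a TSS and 7 a peak there, beside 15.4% of the 7494 annotated genes with a candidate. Among nucleotide-sugar transporters the peak was at senju, which also carries UDP-galactose in the Golgi (1 of 5 with a candidate; rank 414, 540 in replicate 2 and 290 in replicate 4). That region was nearer to eIF3h than to senju, whose TSS was 80 bp away. In oligosaccharide assembly and transfer, peaks lay at 2 of 9 genes. They were Stt3A, a catalytic subunit of the oligosaccharyltransferase (rank 136, 77 in replicate 2 and 390 in replicate 4), and the mannosyltransferase gene Alg1 (rank 1522), with summits 372 bp and 460 bp upstream and nearer to bves and tinc. On replicate 2 alone, without replicate 4, 1 gene of that list had a peak, where a peak is a candidate among that replicate's strongest, counted to the number of pooled peaks.

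Among Arf GTPases and their regulators 2 of 10 genes had a peak. They were siz, an exchange factor for Arf (rank 517, summit 62 bp inside the TSS), and drongo, an Arf GTPase-activating protein (rank 991, 28 bp inside). On replicate 4 alone, without replicate 2, the number was 4. Of the wing vein genes 2 of 10 did, caup, a homeodomain factor of the Iroquois complex (rank 637, 57 bp inside), and ab, the transcription factor Abrupt (rank 1321, 207 bp upstream). Of 8 genes of RNA decay and mitochondrial RNA with a pooled candidate 0 had a peak, whereas on replicate 2 alone, without replicate 4, 3 genes of that list did.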

How the data were processed

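ChIP-seq region lists of 2 biological replicates and of both pooled were used as deposited, in dm6 coordinates, per the labels. The authors deposited for each region a signal value, a −log10 q-value and its position (start, end and summit offset, in bp). Signal ranked regions within a list. The −log10 q-value deposited by the authors was at its highest, 3.85, in 3537 pooled candidates and ranked nothing. Per the text deposited with the files, regions were called against a control alignment shared by both replicates, which was not analysed here. Which caller, aligner and irreproducibility threshold were used is not given in the sources used here. With no read counts, no interval or floor can be given.

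Summits were set against TSSs of Ensembl release 115 and sequence of RefSeq, with Python 3.11.15, numpy 2.4.6 and pandas 2.3.3. The look-ups were tested on simulated data. Summits within 100 bp were matched between lists, and motifs were sought within 100 bp of the summit. Coordinates are 1-based. Named are the 7 genes, genes with a TSS within 2 kb of their summits, the nearest genes of the other promoter summits of the 20 strongest and of those at the edge of the rule, and list genes with a peak within 500 bp. Neighbours such as brp, lncRNA:CR43651, lncRNA:CR45352, hll, CG5504 and CG11362, and the nearest genes ph-p, bves, tinc and eIF3h, were named outside that rule, after their values were seen. The genes, lists and motifs were chosen with earlier results of these data known. List genes without a match in the annotation are not analysed here. The symbol Dl, in the wing vein list, had no match, so the counts of that list leave it out. Other distances, windows and thresholds and each replicate alone were tried.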

Additional observations from a re-analysis of the deposited data

How the results depend on the processing

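The strongest region of each of the 7 genes was among the strongest candidates of both replicates under each matching distance, with the 500 strongest, and in each replicate alone. Pooled signal of these same replicates chose the regions, so nothing is read from that result. The count of peaks within 2 kb of a TSS (9) was 7 to 11, and the median distance (85 bp) 82 to 83 bp. The 32 pooled regions within 2 kb became 18 within 1 kb, 72 within 5 kb and 18 with the outermost TSS only. The 1 gene with another TSS within 500 bp became 0 at 250 bp and 4 at 1 kb. The 4 windows with any motif became 2 at 50 bp and 7 at 250 bp, and the 7 list genes with a peak became 2 with the 500 strongest regions. Among the 20 strongest regions were 4 to 6 of the genes when 1 replicate was left out. The 3 genes with an internal position became 1, px, at 1 kb, an alternative added after seeing the data. For single motifs 11 of 48 recomputed values moved, and for single lists 9 of 25. Wider or narrower distances and smaller sets change such counts by construction. Depth is unknown, the control is shared by both replicates, and no untagged embryos were analysed here. No paired analysis was possible because there was a single group.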
